A study of Mus musculus with 24 samples.

Results

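The 6 genes described here, Procr, Tek, Cd63, Grb10, Adgrl4 and Fgd5, are used in mouse blood research as surface, signalling or quiescence genes of the haematopoietic stem cell, the self-renewing cell from which all blood lineages arise. They were chosen by symbol, as 6 of the 17149 genes in the authors' table, and all 6 passed the filter on low values that left 16215 genes to test. Their levels were read in 24 RNA libraries of sorted mouse bone marrow cells, in 8 groups of n = 3. All cells came from the LSK compartment (no lineage markers, Sca1 and Kit on the surface), which holds stem cells and the earliest progenitors. Cells without surface CD135, the product of Flt3, are called HSC, and cells with CD135 are called LMPP (lymphoid-primed multipotent progenitors). Each was sorted into cells without (GFP-negative) and with (GFP-positive) fluorescence from Rag2-GFP, a reporter of the recombinase gene Rag2 that marks cells on the way to becoming lymphocytes. Both genotypes carried the reporter and floxed alleles of Tal1 (Tal1 F/F), a transcription factor gene of early blood cells. Control cells (Ctrl) had no Cre in their label, and knockout cells (KO) also carried VaviCre, a recombinase driven by the Vav regulatory elements, which are active throughout blood cells. The labels give no animal age and do not say whether the 3 libraries of a group came from separate animals, so a p-value here rests on the scatter among these libraries, part of which may be technical.

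A stem cell rests for long periods, and its surface proteins tie it to signals that hold it at rest in the marrow. Procr encodes the endothelial protein C receptor (EPCR, CD201), which binds protein C and its activated form on endothelium and stem cells. Tek encodes TIE2, the receptor tyrosine kinase for angiopoietins, known from endothelium and from resting stem cells. Cd63 encodes a tetraspanin of late endosomes, granules and exosomes. Grb10 encodes an imprinted adaptor protein that binds insulin-family and other tyrosine kinase receptors and restrains their signal. Adgrl4 (also called Eltd1) encodes an adhesion G protein-coupled receptor of endothelium. Fgd5 encodes an exchange factor for the small GTPase CDC42 and is a marker gene of stem cells. TAL1 is a basic helix-loop-helix factor that binds E-box sequences together with E proteins, often next to GATA factors.

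The gene models, with coordinates in GRCm38/mm10 from GENCODE M21, are as follows. Procr (ENSMUSG00000027611) lies at chr2:155751117-155755471 on the plus strand, and Tek (ENSMUSG00000006386) at chr4:94739289-94874976, plus. Cd63 (ENSMUSG00000025351) lies at chr10:128900989-128912822, plus, and Grb10 (ENSMUSG00000020176) at chr11:11930508-12038683 on the minus strand. Adgrl4 (ENSMUSG00000039167) lies at chr3:151437887-151545086, plus, and Fgd5 (ENSMUSG00000034037) at chr6:91978878-92076004, plus. Fgd5 alone overlaps other annotated genes, Gm44095 and the antisense gene 4930466I24Rik, and no exons are shared.

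Promoter sequences are shown for the pair of members whose level differed between the genotypes over all populations (Adgrl4 and Cd63), for Tek, and for Procr, since the gene removed encodes a factor that reads E-boxes. Each is the plus strand of GRCm38.p6 from RefSeq, 250 bases before to 50 bases after the annotated start, and all 6 genes had an entry (Grb10 had 2). Capitals mark every match, on either strand, to CANNTG (the E-box), AGATAA (the site of GATA factors) and CCGGAAG (the site of ETS factors). The windows are chr3:151437632-151437931 for Adgrl4, chr10:128909095-128909394 for Cd63, chr4:94739039-94739338 for Tek and chr2:155750967-155751266 for Procr.
Adgrl4: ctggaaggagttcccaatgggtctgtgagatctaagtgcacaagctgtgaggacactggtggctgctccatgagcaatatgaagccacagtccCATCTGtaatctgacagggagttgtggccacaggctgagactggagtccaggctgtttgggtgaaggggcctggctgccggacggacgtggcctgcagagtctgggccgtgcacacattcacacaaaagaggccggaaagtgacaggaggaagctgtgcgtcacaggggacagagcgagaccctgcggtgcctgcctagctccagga
Cd63: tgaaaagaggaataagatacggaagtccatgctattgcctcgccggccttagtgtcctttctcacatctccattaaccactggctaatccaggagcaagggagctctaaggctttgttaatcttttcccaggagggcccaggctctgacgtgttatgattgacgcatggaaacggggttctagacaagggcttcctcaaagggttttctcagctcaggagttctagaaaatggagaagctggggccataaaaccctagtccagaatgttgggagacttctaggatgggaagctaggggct
Tek: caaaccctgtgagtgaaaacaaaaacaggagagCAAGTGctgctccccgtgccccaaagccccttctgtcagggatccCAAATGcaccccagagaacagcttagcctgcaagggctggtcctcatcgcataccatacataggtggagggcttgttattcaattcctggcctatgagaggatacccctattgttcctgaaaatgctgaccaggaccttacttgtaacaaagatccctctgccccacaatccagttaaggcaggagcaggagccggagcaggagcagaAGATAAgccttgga
Procr: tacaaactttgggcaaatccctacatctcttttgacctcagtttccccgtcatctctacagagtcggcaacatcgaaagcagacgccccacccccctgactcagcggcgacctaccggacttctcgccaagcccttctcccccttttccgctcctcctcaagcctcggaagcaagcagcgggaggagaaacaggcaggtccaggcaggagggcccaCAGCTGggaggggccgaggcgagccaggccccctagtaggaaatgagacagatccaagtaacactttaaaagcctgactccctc
The Adgrl4 window held 1 E-box, CATCTG, at base -157 from the start. Read on the other strand this is CAGATG, a form favoured by TAL1 with E proteins, which overlaps the E-box search by construction. The Cd63 window held none of the motifs searched. Tek held 2 E-boxes, CAAGTG at -217 and CAAATG at -172, and the GATA site AGATAA at +37, just after the start, and Procr held the E-box CAGCTG at -34. Of the others, the second Grb10 promoter held the E-box CACTTG at -148, while the first Grb10 promoter and that of Fgd5 held none, and the RUNX site TGTGGT was in none of the 7 windows. Among 32851 mouse promoters of the same length, 72.31% held an E-box, 17.15% held CAGATG, 11.18% held AGATAA, 8.858% held CCGGAAG and 16.76% held TGTGGT. A match describes letters only, and no binding was measured.

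The values are the authors' normalised counts, with library totals of 6906083 to 11969093 and the depth in reads unknown. A pair of libraries of low detection stands apart: replicate 2 of Ctrl HSC GFP-positive cells has 11982 genes above 1 normalised count and replicate 3 of KO LMPP GFP-positive cells has 11684, where no other library has fewer than 13583. Procr and Tek were near 0 in both. Labels were checked on 3 genes as the mean over populations in limma's test: Tal1 was lower in KO (log2 difference -2.12, adjusted p = 0.00222), Flt3 was higher in LMPP (2.41, adjusted p = 1.46e-08) and Rag2 was higher in GFP-positive cells (3.65, adjusted p = 1.45e-09). Some Tal1 RNA remained in KO, unevenly. Its mean was 364 normalised counts in KO against 1793 in Ctrl HSC GFP-negative cells, and 243 against 511 in HSC GFP-positive cells. It was 306 against 778 in LMPP GFP-negative cells and 66.6 against 496 in LMPP GFP-positive cells, where the lowest KO library was at 0.499. Of the mature lineage list (8 listed, 4 tested), 0 passed in the 3 mean comparisons, with 2, 0 and 2 at an unadjusted p under 0.05 for genotype, reporter and CD135 gate.

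Levels of different genes can be compared only per length. In Ctrl HSC GFP-negative cells, the group nearest to the classical stem cell gate, Adgrl4 stood far above the other 5 at 987 ± 128 normalised counts per kb of exon (SD, n = 3). Cd63 followed with a level of 105 ± 22.6 per kb, Procr with 66.3 ± 28.9, Grb10 with 62.2 ± 13.6, Tek with 30.4 ± 4.47 and Fgd5 with 21 ± 11.5. Procr and Grb10 did not differ beyond their spread, and they change places per kb of the longest transcript, at 83.8 and 112. In KO HSC GFP-negative cells the per-kb level was 394 ± 191 for Adgrl4, 242 ± 42.1 for Cd63 and 7.21 ± 7.56 for Procr. Adgrl4 and Cd63 were above 1 ppm of the library total in all 24 libraries, Fgd5 in 19, Grb10 in 17, Procr in 16 and Tek in 13, so the last 4 genes were partly at the limit of what these libraries resolve.

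**Figure D1:**
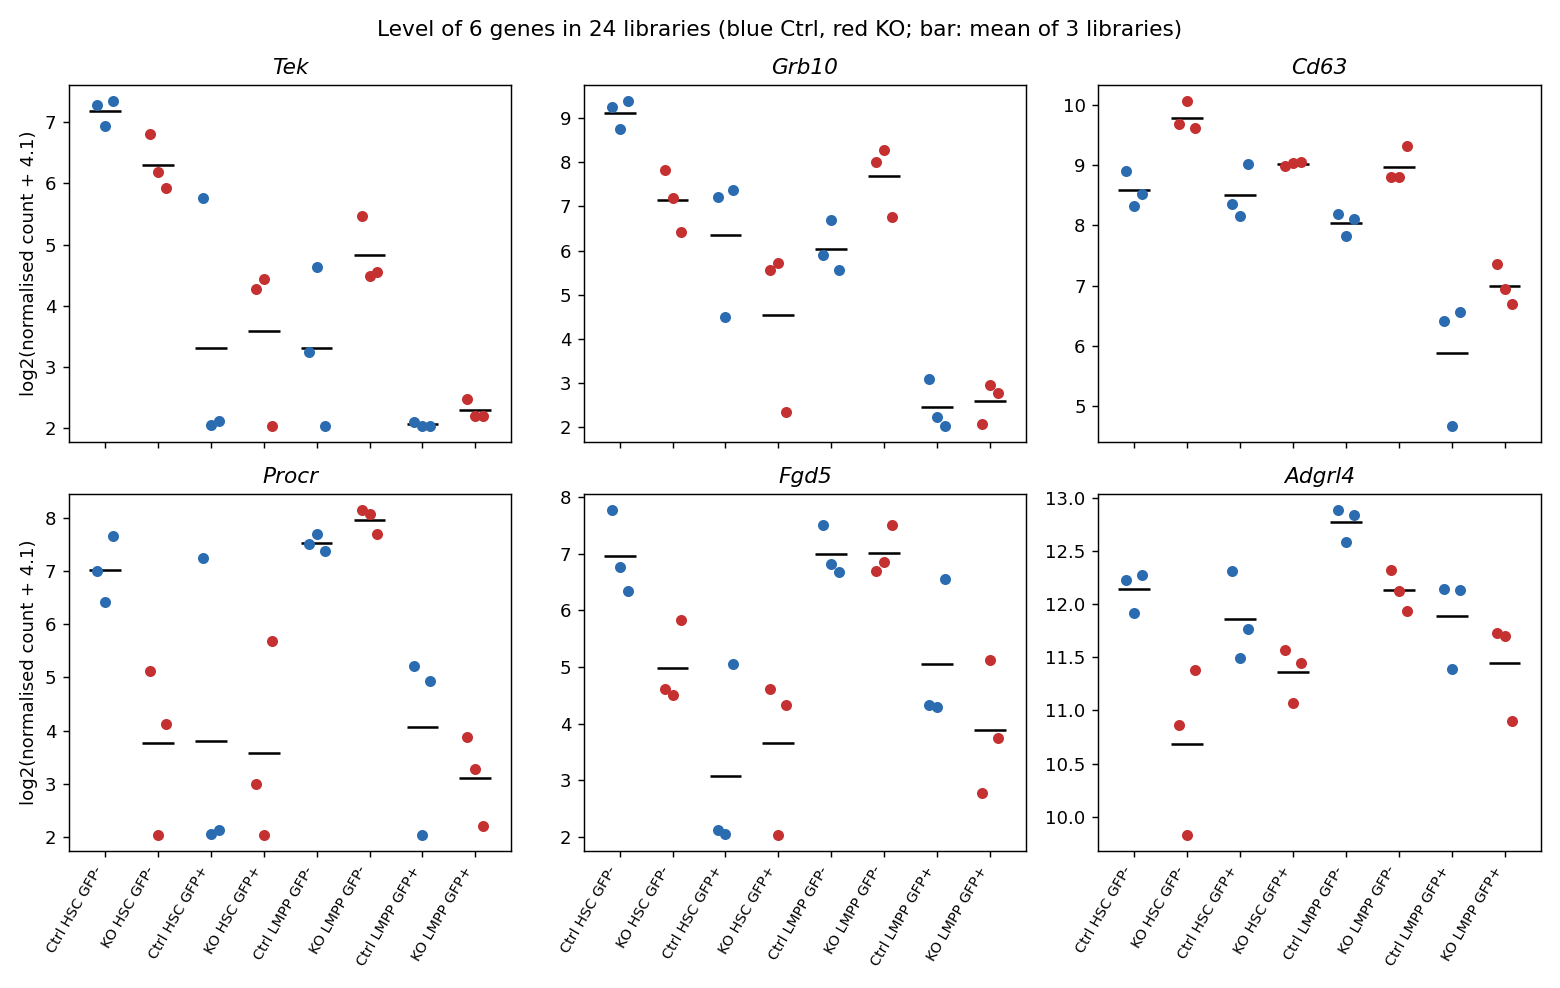
Level of each gene in the 24 libraries as log2(normalised count + 4.1), by group, with Ctrl in blue, KO in red and a bar at the mean of 3 libraries. Tek and Grb10 are highest in Ctrl HSC GFP-negative cells and lie near the floor in LMPP GFP-positive cells, whereas Procr is highest in LMPP GFP-negative cells of both genotypes.

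The order of the 8 groups differed from gene to gene. Grb10 had its highest mean in Ctrl HSC GFP-negative cells, at 565 ± 124 normalised counts (SD, n = 3), and Tek likewise, at 143 ± 21.1. For both, no library of the next group in the order reached the lowest of these. Cd63 was highest in KO HSC GFP-negative cells, at 890 ± 155, again clear of the next group, and Adgrl4 in Ctrl LMPP GFP-negative cells, at 6993 ± 756, also clear. Procr was highest in KO LMPP GFP-negative cells, at 249 ± 40.5, and overlapped Ctrl LMPP GFP-negative cells, at 181 ± 20.9. Fgd5 had like means in 3 groups, 132 ± 72.2 in Ctrl HSC, 130 ± 43.0 in KO LMPP and 129 ± 43.8 in Ctrl LMPP, all GFP-negative and overlapping, and every other group was lower, with a mean of 40.3 or less. From the fourth group down, Procr, Fgd5 and Adgrl4 gave means in which every neighbour in the order overlapped.

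GFP-positive cells had less RNA of 5 of the 6 genes. In the mean over both genotypes and both CD135 gates, Grb10 fell by 3.51 on the log2 scale, Procr by 2.94, Tek by 2.60, Fgd5 by 2.57 and Cd63 by 1.24, with none of the 6 higher. Adgrl4 was the exception at -0.29 ± 0.15 (95% interval -0.61 to 0.02, limma adjusted p = 0.275). In bulk RNA, fewer cells with a transcript and less of it in each cell cannot be told apart.

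Grb10, the insulin and growth factor receptor adaptor, gave 604, 426 and 665 normalised counts in the 3 Ctrl HSC GFP-negative libraries and 145, 18.4 and 163 in the GFP-positive ones. In KO HSC it gave 222, 143 and 82.1 against 42.9, 48.5 and 1.0. In Ctrl LMPP it gave 55.2, 99.0 and 43.1 against 4.48, 0.631 and 0. Every GFP-positive library was below every GFP-negative one in these 3 populations. In KO LMPP the levels were 254, 306 and 104 against 0.127, 3.64 and 2.73, which leaves Grb10 barely detected in the LMPP GFP-positive cells of either genotype. The mean log2 difference was -3.51 ± 0.42 (SE, limma adjusted p = 4.75e-06). Grb10 was lower in 12 of 12 pairs of libraries sharing a description number, genotype and CD135 gate.

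Tek, the TIE2 gene, gave 152, 119 and 159 normalised counts in Ctrl HSC GFP-negative cells and 50.3, 0.0309 and 0.234 in GFP-positive cells. In KO HSC its levels were 108, 69.1 and 56.5 against 15.2, 17.4 and 0.00111. The GFP-positive libraries lay below all GFP-negative ones in both genotypes, and 3 of these 6 held almost no Tek. In LMPP, Tek was low in GFP-negative cells too, at 5.4, 20.7 and 0 in Ctrl and 40.2, 18.4 and 19.3 in KO. No LMPP GFP-positive library exceeded 1.45. The mean difference was -2.60 ± 0.42 (limma adjusted p = 0.000282), and it understates the change, since values near 0 are compressed by the 4.1 normalised counts added before taking logs.

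Procr, the protein C receptor gene, gave 179, 203 and 162 normalised counts in Ctrl LMPP GFP-negative cells and 33.0, 0 and 26.3 in GFP-positive cells. In KO LMPP it gave 279, 265 and 203 against 10.6, 5.53 and 0.483. The groups did not overlap in either genotype. In Ctrl HSC the levels were 125, 81.5 and 198 against 148, 0.0318 and 0.243, so 1 GFP-positive library, replicate 1, was as high as the GFP-negative ones and the other two were near 0. KO HSC had little Procr in either gate, at 30.6, 0 and 13.3 against 3.9, 0 and 47.1. The mean difference was -2.94 ± 0.57 (limma adjusted p = 0.00183). Of the 12 pairs 2 went the other way, and the pair of KO HSC replicate 2 was tied at 0.

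Fgd5, the CDC42 exchange factor gene, gave 214, 105 and 76.9 normalised counts in Ctrl HSC GFP-negative cells against 0.254, 0.0316 and 29.0 in GFP-positive cells. In KO LMPP it gave 99.1, 112 and 179 against 2.76, 30.9 and 9.38, and in Ctrl LMPP 179, 109 and 98.6 against 15.9, 15.5 and 89.5. These 3 populations showed no overlap between the gates. In KO HSC the libraries overlapped, with 20.4, 18.7 and 52.9 against 20.3, 0 and 16.0. The mean difference was -2.57 ± 0.44 (limma adjusted p = 0.000516), with Fgd5 lower in 12 of 12 pairs.

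Cd63, the tetraspanin gene, was above 0 in every library. It gave 288, 222 and 271 normalised counts in Ctrl LMPP GFP-negative cells and 81.6, 21.4 and 90.9 in GFP-positive cells. In KO LMPP it gave 446, 442 and 633 against 161, 119 and 99.3. Neither pair of groups overlapped. In Ctrl HSC the gates overlapped, at 478, 316 and 363 against 323, 280 and 515, and in KO HSC they did not, at 822, 1068 and 782 against 505, 522 and 527. The mean difference was -1.24 ± 0.20 (limma adjusted p = 0.000313). The interaction tests made here concern genotype, so whether the fall of Cd63 differs between LMPP and HSC was not tested.

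Over the 16215 genes tested, 7.23% passed in the mean reporter comparison, against 5 of these 6. The exact two-sided sign-flip test over the 6 description numbers gave p = 0.031, the smallest it allows, for Procr, Tek, Cd63, Grb10 and Fgd5, with 6 of 6 numbers lower for each. For Adgrl4 the exact test gave p = 0.1875. The median over all genes was itself below 0, at -0.14, and reached -0.26 with library totals scaled equal, a shift far smaller than the 5 falls. These 5 calls held in all 35 alternatives tried for each, including leaving out each of the 24 libraries in turn and both libraries of low detection.

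Within single populations fewer members passed limma's test. In Ctrl HSC these were Tek (-3.88 ± 0.85, adjusted p = 0.0116) and Fgd5 (-3.89 ± 0.89, adjusted p = 0.0153), where 2.72% of all genes passed. Tek did not pass without Ctrl HSC GFP-negative replicate 3 (adjusted p = 0.05005) or GFP-positive replicate 2 (0.0736), and Fgd5 did not without GFP-negative replicate 1 (0.0904) or GFP-positive replicate 2 (0.0746). In KO HSC 0 members passed, against 0.376% of all genes, and Tek (-2.73), Grb10 (-2.61) and Adgrl4 (0.67) were at an unadjusted p under 0.05. In KO LMPP, where 1.15% passed, Grb10 (-5.08 ± 0.83, adjusted p = 0.00181), Cd63 (-1.98 ± 0.41, adjusted p = 0.013) and Procr (-4.86 ± 1.14, adjusted p = 0.031) fell. Cd63 was lost without KO LMPP GFP-negative replicate 3 (0.0562) or GFP-positive replicate 3 (0.0589). Procr was lost without any 1 of KO LMPP GFP-negative replicates 1, 2 and 3 (0.119, 0.127 and 0.0637) or GFP-positive replicate 3 (0.181). In Ctrl LMPP only Cd63 passed (-2.15 ± 0.41, adjusted p = 0.0311), against 0.0555% of all genes. It did not pass without Ctrl LMPP GFP-negative replicate 1, 2 or 3 (0.193, 0.132 and 0.138) or GFP-positive replicate 2 (0.291). Libraries of the 2 gates did not overlap for 3 of the 6 members in Ctrl HSC, 3 in KO HSC, 5 in Ctrl LMPP and all 6 in KO LMPP, where the shares of all genes were 17.8%, 15.5%, 14.8% and 19.1%.

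Other genes of the stem cell programme moved with the reporter too. Of a list of stem cell surface and signature genes that holds none of the 6, 18 of 31 tested fell and 0 rose, among them Vwf, the von Willebrand factor gene (-2.96), Ifitm1 (-1.55) and Mamdc2 (-2.72). The list's median was -0.93, beside -0.14 for all genes. Of 18 stem cell transcription factors 9 fell and 0 rose (median -1.28), among them Hlf (-1.80), Meis1 (-1.10) and Gata2 (-3.15). Of 16 genes on a quiescence and cell cycle brake list 5 fell, Txnip (-1.20), Foxo3 (-0.66), Egr1 (-2.70), Tob1 and Foxo1. Cdkn1a rose, as did Cdk6, which is on the list but encodes a cyclin-dependent kinase and is no brake. Of 20 proliferation genes 10 rose and 0 fell (median 0.50), led by Top2a (0.82) and Mki67 (0.78). Markers of other cell types moved in the same comparison, though the lists share genes. Vwf and Itga2b are in the stem cell surface list and in the platelet list, and Esam is in the stem cell surface list and in the endothelial list. All 7 tested megakaryocyte and platelet genes fell, their summed level ranging from 2976 to 4453 normalised counts in Ctrl HSC GFP-negative libraries and from 356 to 653 in GFP-positive ones. Of 9 mast cell genes 6 fell, although the sum of the list without Kit was 220 to 479 in Ctrl HSC GFP-negative and 483 to 1796 in GFP-positive libraries. Of 10 erythroid genes Gata1, Klf1, Epor and Slc4a1 fell, and the list's summed level was 428 to 718 against 63.1 to 243 in Ctrl HSC and 3065 to 4541 against 665 to 1663 in KO HSC. Endothelial genes, which matter for members known from endothelium, split: of 6 tested, Esam, Tie1 and Emcn fell and Pecam1 rose, and their summed level was 1199 to 1398 in Ctrl HSC GFP-negative and 1344 to 2796 in GFP-positive libraries. The part of these markers in the members' falls was not tested.

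**Figure D2:**
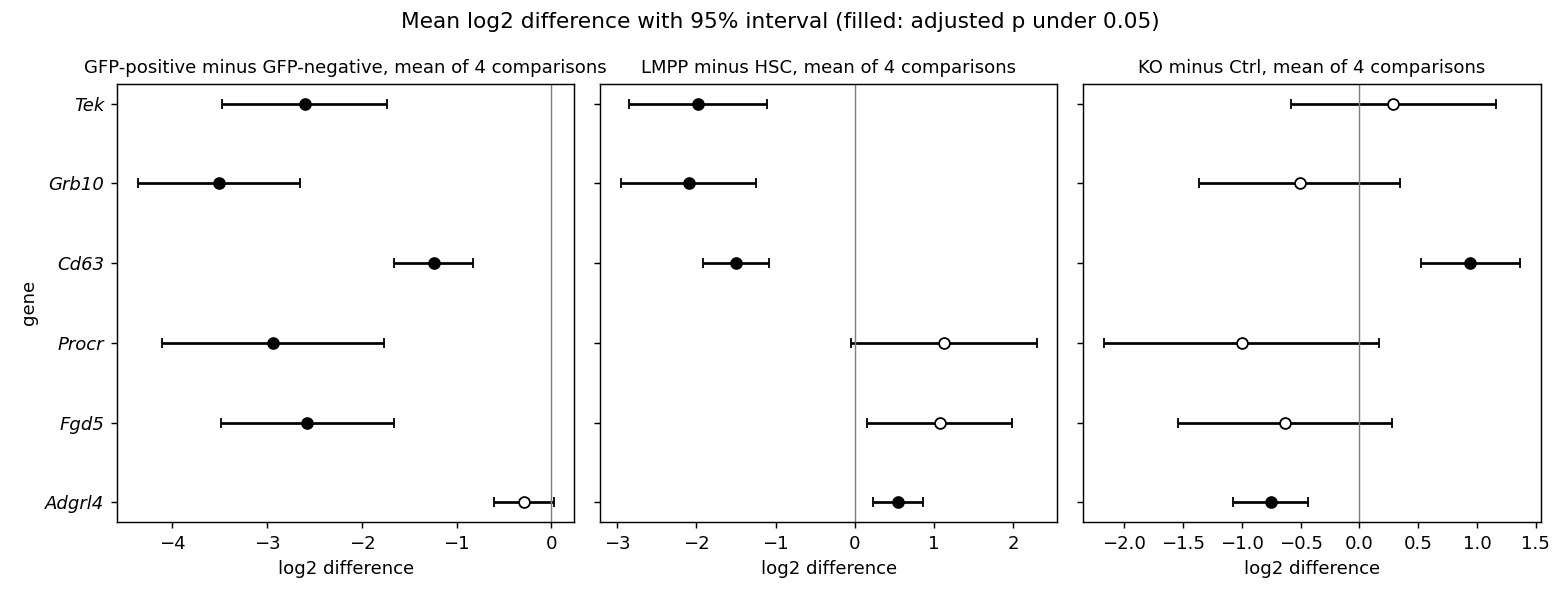
Mean log2 difference of each gene with its 95% interval for the reporter gate, the CD135 gate and the genotype, each the mean of 4 comparisons, with filled points for an adjusted p under 0.05. All genes but Adgrl4 fall with the reporter, Tek, Grb10 and Cd63 also fall from HSC to LMPP, and Cd63 and Adgrl4 move in opposite directions with genotype.

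The CD135 gate split the 6 genes. Tek, Grb10 and Cd63 were lower in LMPP than in HSC in the mean, with log2 differences of -1.98 ± 0.42, -2.10 ± 0.42 and -1.50 ± 0.20 (limma adjusted p = 0.00513, 0.00251 and 3.09e-05). The Grb10 fall was not general, since its difference in KO GFP-negative cells was 0.53 ± 0.83. Of 12 pairs of libraries sharing a description number, genotype and reporter gate, 4 were higher in LMPP for Grb10, 1 for Tek and 0 for Cd63. Adgrl4 was higher, at 0.55 ± 0.15 (adjusted p = 0.0403). Procr and Fgd5 had positive values that did not pass, 1.13 ± 0.57 (95% interval -0.04 to 2.30, adjusted p = 0.351) and 1.07 ± 0.44 (0.16 to 1.98, adjusted p = 0.21). Of all genes tested, 4.18% passed.

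Among Ctrl GFP-negative cells the libraries of LMPP and HSC did not overlap for Tek, Grb10, Cd63 and Adgrl4. Tek went from 119 to 159 normalised counts in HSC to 0 to 20.7 in LMPP, and Grb10 from 426 to 665 to 43.1 to 99.0. Cd63 moved far less, from 316 to 478 down to 222 to 288. Adgrl4 had a level of 3853 to 4936 in HSC and 6129 to 7535 in LMPP, a log2 difference of 0.63 ± 0.31 that did not pass. Procr (81.5 to 198 against 162 to 203) and Fgd5 (76.9 to 214 against 98.6 to 179) overlapped, with the protein C receptor gene at a mean of 181 in LMPP and 135 in HSC. The 95% intervals of the log2 difference were -1.84 to 2.84 for Procr and -1.78 to 1.87 for Fgd5.

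In KO GFP-negative cells LMPP and HSC separated without overlap for 5 of the 6 genes. Procr was at 279, 265 and 203 normalised counts in LMPP against 30.6, 0 and 13.3 in HSC, a log2 difference of 4.21 ± 1.14 (limma adjusted p = 0.0831). Adgrl4 was at 5113, 4461 and 3916 against 1856, 906 and 2654 and rose (1.44 ± 0.31, adjusted p = 0.0164). Fgd5 was at 99.1, 112 and 179 against 20.4, 18.7 and 52.9 (2.03 ± 0.89, adjusted p = 0.487). For these 3 genes every LMPP library lay above every HSC library. Tek (18.4 to 40.2 in LMPP, 56.5 to 108 in HSC) and Cd63 (442 to 633, 782 to 1068) lay below without overlap, and Grb10 overlapped (104 to 306, 82.1 to 222). The Adgrl4 call was lost without KO HSC GFP-negative replicate 2 (1.01, adjusted p = 0.269) or KO LMPP GFP-negative replicate 1 (0.119) or 2 (0.0578), and with library totals scaled equal (0.0550). Procr passed in 5 alternatives, among them array weights (adjusted p = 0.000773), a replicate block (0.0440) and the fit without the 2 libraries of low detection (0.0208).

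In the same order of Ctrl GFP-negative, Ctrl GFP-positive, KO GFP-negative and KO GFP-positive cells, 1, 2, 1 and 1 of the 6 members passed, beside 0.37%, 0.894%, 0.876% and 0.611% of all genes. Libraries did not overlap for 4, 2, 5 and 1 members, beside 14.8%, 14.3%, 22.3% and 14.5% of all genes. Tek was the call in Ctrl GFP-negative cells (-3.89 ± 0.85, limma adjusted p = 0.0324). It did not pass without Ctrl HSC GFP-negative replicate 1, 2 or 3 (0.135, 0.0935 and 0.133) or Ctrl LMPP GFP-negative replicate 1 or 3 (0.157 and 0.294). In Ctrl GFP-positive cells Cd63 (-2.62 ± 0.41, adjusted p = 0.000983) and Grb10 (-3.90 ± 0.83, adjusted p = 0.0208) fell. Grb10 was lost without Ctrl LMPP GFP-positive replicate 2 (0.0974) or 3 (0.0823). In KO GFP-positive cells Cd63 fell, from 505 to 527 in HSC to 99.3 to 161 in LMPP (-2.03 ± 0.41, adjusted p = 0.0122), a call lost without KO HSC GFP-positive replicate 1, 2 or 3 (0.05003, 0.0719 and 0.0507) or KO LMPP GFP-positive replicate 3 (0.0528). Among Ctrl LMPP GFP-positive libraries Cd63 spread from 21.4 to 90.9, and it was 280 to 515 in Ctrl HSC GFP-positive libraries.

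The exact two-sided sign-flip test over the 6 description numbers gave p = 0.031, the smallest it allows, for Tek and Cd63 (0 of 6 numbers higher in LMPP) and for Adgrl4 and Fgd5 (6 of 6 higher). The exact p was 0.0625 for Grb10, with 1 number higher, and 0.15625 for Procr, with 5 higher. The mean calls of Tek, Grb10 and Cd63 held in every alternative tried. That of Adgrl4 did not pass with library totals scaled equal (adjusted p = 0.0704) or in 15 of the 24 fits that left out 1 library (0.0514 to 0.0857). These libraries were, by replicate, Ctrl HSC GFP-negative 1 and 2, Ctrl HSC GFP-positive 2 and 3, Ctrl LMPP GFP-negative 1 and 3, Ctrl LMPP GFP-positive 1 and 3, KO HSC GFP-negative 2, KO HSC GFP-positive 2 and 3, KO LMPP GFP-negative 1 and 2, and KO LMPP GFP-positive 1 and 2.

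Of 31 stem cell surface and signature genes 5 fell from HSC to LMPP, among them Itga2b (-3.72), Slamf1 (-1.53) and Itga6 (-0.61), while Ly6a, the Sca1 gene (1.92), and Cd27 rose. The median was 0.10, beside 0.02 for all genes. Among 18 transcription factors Hlf (0.86) and Hoxa9 (1.21) rose and Gata2 (-2.12) was among those that fell. Of 9 mast cell genes 5 fell, led by Cpa3, the mast cell carboxypeptidase (-5.72), and of 7 megakaryocyte and platelet genes 3 fell, with Itga2b also in the stem cell surface list. Of 10 erythroid genes Gata1 fell. Of 6 endothelial genes Egfl7 rose and Tie1 fell, and their summed level was 1199 to 1398 in HSC and 1046 to 1684 in LMPP libraries of Ctrl GFP-negative cells. The part of these markers in the members' values was not tested.

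KO cells had more Cd63 RNA and less Adgrl4 RNA than Ctrl cells. In the mean over the 4 populations Cd63 rose by 0.94 ± 0.20 on the log2 scale in KO (95% interval 0.52 to 1.36, limma adjusted p = 0.0287), and Adgrl4 fell by 0.76, with an SE of 0.15 (-1.07 to -0.44, adjusted p = 0.0165). The other four did not pass: Procr -1.0 ± 0.57 (-2.17 to 0.17, adjusted p = 0.734), Fgd5 -0.63 ± 0.44 (-1.55 to 0.28, 0.781), Grb10 -0.51 ± 0.42 (-1.36 to 0.35, 0.827) and Tek 0.29 ± 0.42 (-0.58 to 1.16, 0.918). Of all genes tested, 0.469% passed.

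Cd63 was at 478, 316 and 363 normalised counts in Ctrl and 822, 1068 and 782 in KO HSC GFP-negative cells. In LMPP GFP-negative cells it was at 288, 222 and 271 against 446, 442 and 633, and in LMPP GFP-positive cells at 81.6, 21.4 and 90.9 against 161, 119 and 99.3. Every KO library was above every Ctrl library in these 3 populations. In HSC GFP-positive cells the groups overlapped, where Ctrl replicate 3 (515) lay within the KO range of 505 to 527. The difference was 1.21 ± 0.41, 0.94 ± 0.41, 1.11 ± 0.41 and 0.52 ± 0.41 in that order, and none passed in a single population.

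Adgrl4 was at 4790, 3853 and 4936 normalised counts in Ctrl and 1856, 906 and 2654 in KO HSC GFP-negative cells, a fall that passed on its own (-1.45 ± 0.31, limma adjusted p = 0.0491). In LMPP GFP-negative cells it was at 7535, 6129 and 7314 against 5113, 4461 and 3916 (-0.64 ± 0.31, adjusted p = 1), again without overlap. In HSC GFP-positive cells it was at 5075, 2885 and 3468 against 3026, 2148 and 2777 (-0.50 ± 0.31), and in LMPP GFP-positive cells at 4504, 2679 and 4474 against 3387, 3318 and 1910 (-0.44 ± 0.31). Both GFP-positive populations overlapped and did not pass.

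For Cd63 and Adgrl4 the exact two-sided permutation of the 6 number means gave p = 0.1, the smallest that 3 against 3 allow, so all 3 KO numbers lay on one side. The Cd63 call was lost with the description number as a random term (adjusted p = 0.0505) and in 11 of the 24 fits that left out 1 library (0.0505 to 0.0785): by replicate, Ctrl HSC GFP-negative 2 and 3, Ctrl LMPP GFP-negative 2 and 3, KO HSC GFP-negative 1 and 2, KO HSC GFP-positive 1, 2 and 3, KO LMPP GFP-negative 3 and KO LMPP GFP-positive 1. Its value stayed between 0.90 and 0.96 in these. The Adgrl4 mean did not pass with library totals scaled equal (-0.71, adjusted p = 0.0590) and held in the other alternatives. Its HSC GFP-negative call was lost without Ctrl HSC GFP-negative replicate 1, 2 or 3 (0.203, 0.0996 and 0.272) or KO HSC GFP-negative replicate 1 (0.168) or 2 (-1.02, adjusted p = 0.701).

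In HSC GFP-negative cells all 6 members separated the genotypes without overlap, which 12.7% of all genes did. Only Adgrl4 passed there, and 0.16% of all genes did. Procr was at 125, 81.5 and 198 normalised counts in Ctrl and 30.6, 0 and 13.3 in KO (-3.27 ± 1.14, unadjusted p = 0.00808, limma adjusted p = 0.821). Grb10 was at 604, 426 and 665 against 222, 143 and 82.1 (-1.98 ± 0.83, adjusted p = 1). Fgd5 was at 214, 105 and 76.9 against 20.4, 18.7 and 52.9 (-1.97 ± 0.89, adjusted p = 1), and Tek at 152, 119 and 159 against 108, 69.1 and 56.5 (-0.88 ± 0.85, adjusted p = 1). So 5 of the 6 had lower values in KO HSC GFP-negative cells and Cd63 had higher ones, and for Procr, Grb10, Fgd5, Tek and Cd63 the difference was not resolved over all genes. With array weights Procr (-2.94, adjusted p = 0.0416) and Cd63 (1.13, adjusted p = 0.0414) passed, and with the 6 libraries of these groups alone Cd63 (1.21, adjusted p = 0.0486) and Grb10 (-1.98, adjusted p = 0.0217) did.

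In the other 3 populations no member passed for genotype in limma's test, where 0.432% (HSC GFP-positive), 0.0555% (LMPP GFP-negative) and 0.0432% (LMPP GFP-positive) of all genes did, and 1, 2 and 1 members had an unadjusted p under 0.05. Libraries did not overlap for 0, 3 and 2 of the 6 members, beside 14.3%, 10.8% and 9.55% of all genes. The 3 in LMPP GFP-negative cells were Cd63, Adgrl4 and Grb10, and Grb10 was there the higher in KO, at 254, 306 and 104 against 55.2, 99.0 and 43.1 in Ctrl (1.63 ± 0.83, adjusted p = 1). The 2 in LMPP GFP-positive cells were Cd63 and Tek, the latter at 1.45, 0.471 and 0.461 against 0.169, 0 and 0, all at or near the lowest value that these libraries resolve.

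Mast cell genes moved with genotype beside Cd63, which is also known as a granule protein of mast cells and basophils. Of 9 tested, Gzmb (3.25), Mcpt4 (2.94), Cma1 (3.17), Ms4a2 (2.56) and Cpa3 (2.32) rose in KO and 0 fell. Most of the list's summed level in Ctrl was Kit, which the LSK gate selects, so the sum is given for the other 8 genes. In HSC GFP-negative cells that sum was 220 to 479 normalised counts in Ctrl and 2236 to 10558 in KO libraries. Cpa3 had a mean of 230 in Ctrl and 4168 in KO, and Cma1 and Mcpt4 stayed under 3 in every Ctrl library of that group. In LMPP GFP-positive cells 6 of the 9 (Cma1, Fcer1a, Gzmb, Mcpt4, Ms4a2 and Tpsb2) were under 3 in every library of both genotypes, and the sum without Kit was 17.2 to 23.9 in Ctrl and 3.62 to 104 in KO. The Cd63 difference in that population was 1.11 ± 0.41 and did not pass (limma adjusted p = 0.626). Erythroid genes rose as well, 6 of 10 tested (Hba-a1, Hba-a2, Hbb-bs, Hbb-bt, Alas2 and Slc4a1). Their list's summed level was 428 to 718 in Ctrl and 3065 to 4541 in KO HSC GFP-negative libraries, and 76.2 to 185 in Ctrl and 934 to 10119 in KO LMPP GFP-positive ones. Of 31 stem cell surface and signature genes, Pdzk1ip1 rose and Ifitm1 fell, and of the 18 transcription factors, the 16 quiescence genes, the 20 proliferation genes and the 6 endothelial genes 0 passed in limma's test, with 4, 1, 1 and 1 at an unadjusted p under 0.05. The part of the mast cell and erythroid genes in the Cd63 difference was not tested.

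**Figure D3:**
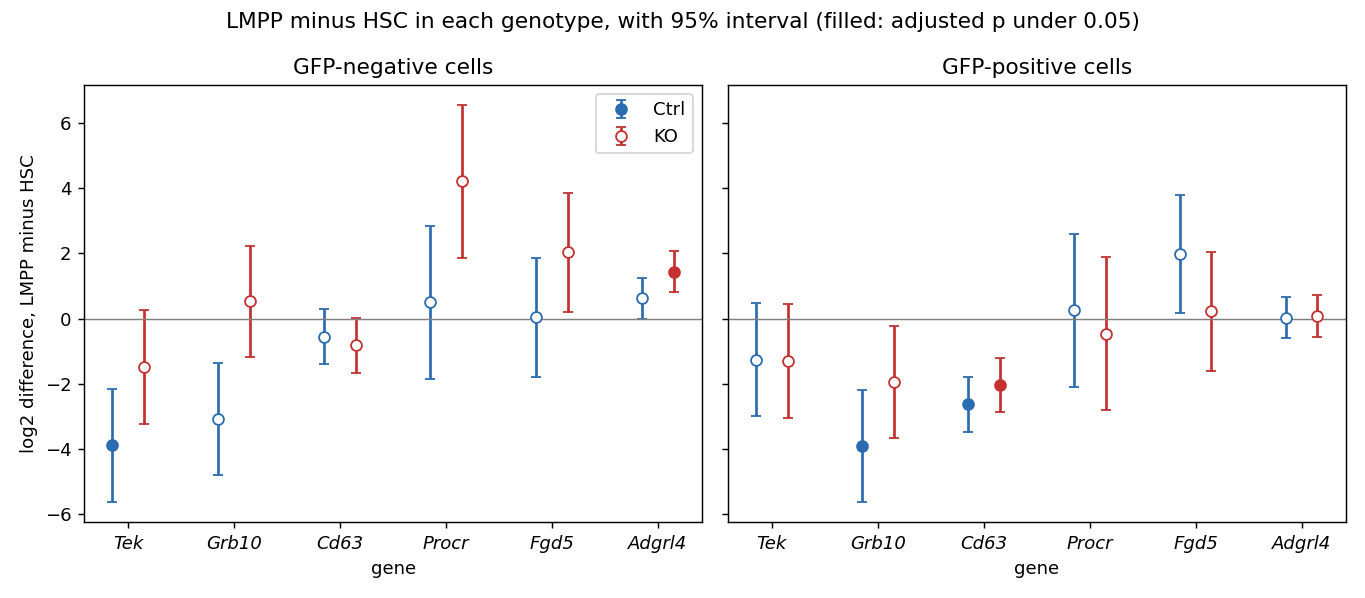
Log2 difference of each gene between LMPP and HSC with its 95% interval, in Ctrl (blue) and KO (red), for GFP-negative and GFP-positive cells, with filled points for an adjusted p under 0.05. In GFP-negative cells the KO points of Tek, Grb10, Procr, Fgd5 and Adgrl4 lie above the Ctrl points, and the 95% intervals of the genotypes overlap for all of these but Grb10.

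Whether genotype changed the effect of the CD135 gate or of the reporter was tested as an interaction, and no member passed in limma's test in any of 5 such comparisons. In GFP-negative cells Grb10 came closest: its LMPP against HSC difference was -3.08 ± 0.83 in Ctrl and 0.53 ± 0.83 in KO, an interaction of 3.61 ± 1.18 (unadjusted p = 0.00502, adjusted p = 1). Procr (3.71 ± 1.61), Tek (2.41 ± 1.20), Fgd5 (1.99 ± 1.25) and Adgrl4 (0.81 ± 0.43) had the same sign, and Cd63 was at -0.27 ± 0.58, all with an adjusted p of 1. For genotype and CD135 gate, 0%, 0.0308% and 0.0123% of all genes passed in GFP-negative cells, GFP-positive cells and the mean of both, with 2, 0 and 1 members at an unadjusted p under 0.05. For genotype and reporter, 0.00617% passed in HSC and 0% in LMPP, with 1 and 0 members at an unadjusted p under 0.05. The reporter difference of Procr in HSC was -3.23 ± 1.14 in Ctrl and -0.19 ± 1.14 in KO, an interaction of 3.04 ± 1.61 (adjusted p = 0.721).

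The pathway partners of each member were read from lists chosen with earlier results of these data known. In the protein C pathway, 8 of 13 genes were tested, and with the reporter F2r, the thrombin receptor gene (-2.12), F2rl3 (-1.95), F8 (-1.37) and Procr fell, while 0 passed in limma's test for the CD135 gate or for genotype (4 and 3 at an unadjusted p under 0.05). In the TIE2 pathway, 11 of 13 were tested. Its ligand gene Angpt1 (-0.78), the sister receptor gene Tie1 (-1.91), the downstream factor gene Foxo1 (-0.88) and Tek fell with the reporter. Tek and Tie1 (-1.35) also fell from HSC to LMPP, where Pik3r1, a regulatory subunit of PI3 kinase, rose (0.41). Ligand, receptor and co-receptor were thus all lower in GFP-positive cells in the mean over populations. Tie1 was not lower in KO HSC, with a mean of 211 normalised counts in GFP-positive and 205 in GFP-negative cells. For genotype 0 of the 11 passed (1 at an unadjusted p under 0.05).

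Among 25 tested tetraspanins and Cd63 partners, Cd63, Cd81 (-0.58), Tspan33 (-1.85) and Tspan8 (-1.38) fell with the reporter and 0 rose. From HSC to LMPP Cd63 fell while Cd53 (0.61) and Tspan13 (0.83) rose. For genotype Cd63 alone passed. Among 13 tested genes of the Grb10 family and its receptors, Grb10, Kit (-0.67) and Nedd4, the ubiquitin ligase that binds GRB10 (-0.31), fell with the reporter and Irs1 (1.38) rose, and Grb10, Kit (-0.46) and Nedd4 (-0.46) fell from HSC to LMPP. Irs1 was near the floor, under 3 normalised counts in every Ctrl HSC, Ctrl LMPP and KO LMPP GFP-negative library. The same held in every KO HSC GFP-positive library. Of 24 tested imprinted genes, Grb10, Igf2 (-1.17), Meg3 (-1.39), Sgce (-2.01) and Ppp1r9a (-1.11) fell with the reporter. Igf2 and Meg3 were near the floor, under 3 normalised counts in every KO HSC library of either gate. They were also under 3 in every Ctrl HSC and KO LMPP GFP-positive library. Igf2r rose (2.21) and Gatm (-0.88) and Grb10 fell from HSC to LMPP, and 0 imprinted genes and 0 of the Grb10 family passed for genotype (3 of each at an unadjusted p under 0.05). The list medians for the reporter were -0.69 for imprinted genes, -0.22 for the Grb10 family and -0.19 for tetraspanins, beside -0.14 for all genes.

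Of 15 tested adhesion G protein-coupled receptors, Adgrl2 (-1.73), Adgre5 (-2.0), Adgrg1 (-0.33) and Adgre4 (-0.96) fell with the reporter and Adgrg3 rose (1.29). From HSC to LMPP Adgrl4 rose, while its latrophilin relatives Adgrl1 (-1.39) and Adgrl2 (-1.90) fell, as did Adgrg1 (-0.30). Adgrl4 alone of the 15 passed for genotype. Of 18 tested genes of the Fgd family and the CDC42 axis, Fgd5 fell and Arhgdib (0.46) rose with the reporter, Fgd2 rose from HSC to LMPP (1.13), and 0 passed for genotype (2 at an unadjusted p under 0.05).

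Across the 24 libraries the 6 genes formed a pair of trios by likeness, given here as a description without a test. Tek and Grb10 had the highest Pearson r, 0.84, and Cd63 joined them at 0.67 with Grb10 and 0.60 with Tek. Procr and Adgrl4 had an r of 0.74, Procr and Fgd5 0.66, and Adgrl4 and Fgd5 0.51. Between the trios r ran from -0.21 (Cd63 and Adgrl4) to 0.49 (Procr and Grb10). The first trio holds the 3 genes that were lower in LMPP in the mean CD135 comparison, and the points share library depth and description numbers.

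**Figure D4:**
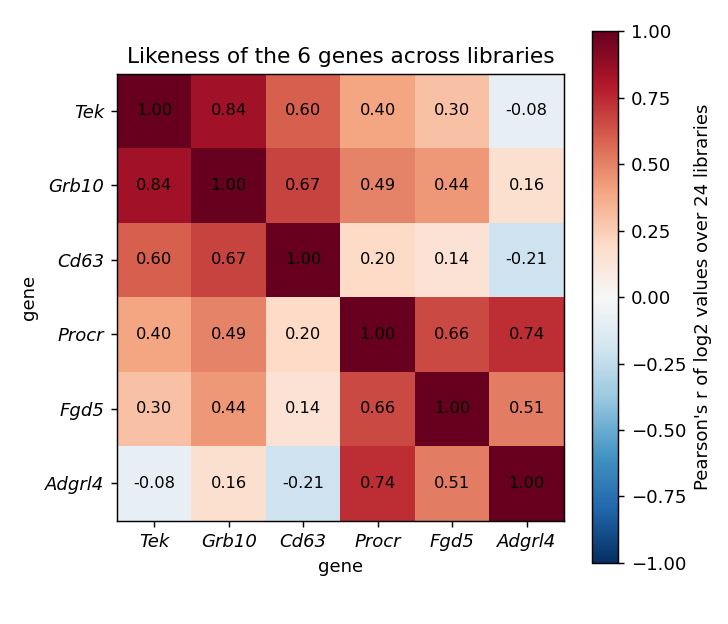
Pearson's r between the log2 values of the 6 genes over the 24 libraries, from -1 (blue) to 1 (red). Tek, Grb10 and Cd63 form one block with r of 0.60 to 0.84, and Procr, Fgd5 and Adgrl4 another with r of 0.51 to 0.74.

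The genes of most like pattern were taken as the 4 with the highest r over the 24 libraries. For Procr they included Lmo2, an adaptor gene (r = 0.80, and 0.91 over the 8 group means), Hlf (0.78) and Cadps2 (0.77). Without the 2 libraries of low detection they took places 7, 12 and 13, and by rank correlation Cadps2 was first. For Tek they included Sdsl (0.89), Tgfbr3, the betaglycan gene (0.88), and Ermap (0.88). Tgfbr3 was the closest without the 2 libraries of low detection (0.92) and by rank correlation (0.89). For Cd63 they were Mdga1 (0.85), the apolipoprotein gene Apoe (0.82), Slc25a24 (0.81) and Dach1 (0.80). Mdga1 and Slc25a24 dropped to places 56 and 58 by rank correlation, where Apoe was first.

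For Grb10 they were Prkg1, a cGMP-dependent kinase gene (0.85), the cyclooxygenase gene Ptgs1 (0.82), Tnfaip2 (0.81) and Sox6 (0.80), and Ptgs1 was the closest without the 2 libraries of low detection (0.89). For Adgrl4 they were Cyp2j9 (0.83), Nek6 (0.79), Acot1 (0.78) and Procr itself (0.74), with Nek6 at place 108 by rank correlation. Fgd5 was nearest to Gucy1a1, a subunit of soluble guanylate cyclase, at 0.88, which kept place 1 in each of the other measures run over libraries. Spaca6 (0.83), Maged1 (0.82) and the carbonic anhydrase gene Car2 (0.81) followed.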

How the data were processed

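RNA of sorted mouse bone marrow cells was sequenced for 76 cycles from low-input libraries, per the labels' protocols. Per the submitters' processing notes, Trimmomatic 0.33, HTSeq 0.6.1 and edgeR (version not given) were used on mm10, and neither an aligner nor the normalisation function is named there. The authors deposited normalised counts, a signal per gene. Just 0.183% of those above 0.5 came within 0.001 of a whole number, so reads were not recovered, count models were not used and sequencing depth is unknown. Of 24 libraries, 13 list no gene at 0 and the others list 755 to 2126, so 0 in one library may stand for a small fraction in another. Gene names came from GENCODE M21 for 16985 genes, and 164 had no entry.

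Genes with at least 1 ppm of the library total in at least 3 libraries were kept (16215). Values were taken as log2(value + 4.1), the added 4.1 being 0.5 ppm of the mean library total, so differences understate the change of genes near 0. limma 3.58.1 in R 4.3.3 was fitted with 8 group means to all 24 libraries (empirical Bayes with intensity trend, 16 residual degrees of freedom). Benjamini-Hochberg adjustment was made within each of 20 comparisons, and a gene passed, rose or fell at an adjusted p under 0.05. The method was tested on simulated data with normal noise on the log scale, and changes were planted only in genes well above 0. That test gives no measure of how changes are recovered in genes near 0. The 6 genes, the lists and the tests were chosen with earlier results of these data known. Genes named beside the 6 were label checks, up to 4 passing members of each list by smallest p (others of a list were named after their values were seen) and up to 4 of most like pattern (mean of at least 5 ppm, predicted genes and receptor segments left out). Some genes that the rule names are not reported here. Alternatives were other pseudocounts, filters and scalings, array weights, blocks, fits on the groups compared alone and each library left out, and, added after seeing the data, the fit without the 2 libraries of low detection and the description number as a block. Sequences came from RefSeq, build GRCm38.p6.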

Additional observations from a re-analysis of the deposited data

How the results depend on the processing

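Alternatives were counted for 64 differences of the 6 genes. These were all that passed, all whose libraries did not overlap, and all in the mean comparisons of reporter, CD135 gate and genotype. Added to them were genotype in HSC GFP-negative cells and the interaction of genotype and CD135 gate in GFP-negative cells. Of the 64, 23 passed. Over 598 alternatives of these 23, 515 kept the call, 83 lost it and 0 changed sign. The 8 kept in every alternative were the 5 mean reporter falls and the mean CD135 falls of Tek, Cd63 and Grb10. Of those among the 64 that did not pass, 12 passed in at least 1 alternative. Of the other 56 differences, some of them also given above, 23 changed sign in at least 1 alternative.

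The number of members passing depended on the setting as follows. For genotype in HSC GFP-negative cells it was 1, and 0 with a pseudocount of 0.1 ppm, a filter of 5 ppm, library totals scaled equal or median of ratios scaling, 3 with array weights, 2 with only the libraries compared and 0 to 1 when 1 library was left out. For the mean genotype comparison it was 2, and 1 with totals scaled equal or the description number as a random term, and 1 to 2 with 1 library left out. For the reporter in Ctrl HSC it was 2, and 3 with a pseudocount of 2 ppm or totals scaled equal. It was 0 with array weights or only the libraries compared, and 0 to 4 with 1 library left out. In Ctrl LMPP it was 1, and 0 with a pseudocount of 0.1 ppm, 2 with array weights, without the 2 libraries of low detection or with only the libraries compared, and 0 to 1 with 1 library left out. In KO LMPP it was 3, and 2 with a pseudocount of 0.1 ppm or without the 2 libraries of low detection. It was 4 with a pseudocount of 2 ppm, 5 with array weights, 0 with only the libraries compared and 1 to 4 with 1 library left out. For LMPP against HSC in Ctrl GFP-negative cells it was 1, and 0 with a pseudocount of 0.1 ppm, 2 with a pseudocount of 2 ppm, array weights, without the libraries of low detection or with only the libraries compared, and 0 to 1 with 1 library left out. In Ctrl GFP-positive cells it was 2, and 0 with only the libraries compared and 1 to 3 with 1 library left out. In KO GFP-negative cells it was 1, and 2 with a pseudocount of 2 ppm, array weights, a replicate block or without the libraries of low detection, 0 with totals scaled equal, 3 with only the libraries compared and 0 to 1 with 1 library left out. In KO GFP-positive cells it was 1, and 2 with array weights, 0 with only the libraries compared and 0 to 1 with 1 library left out. In the mean CD135 comparison it was 4, and 3 with totals scaled equal and 3 to 4 when 1 library was left out. In the mean reporter comparison it was 5 in each. For the interaction of genotype and CD135 gate in GFP-negative cells it was 0, and 1 with array weights (Grb10, 3.82, limma adjusted p = 0.0486). Apart from fits with fewer libraries or genes, the cause of these changes was not tested.

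Within a genotype, libraries of the same replicate number share a description number, and the labels do not say what that number stands for. Across genotypes they share the replicate number only. Deviations of same-numbered libraries had correlations of -0.05 to 0.20 over 28 pairs of groups. Within a genotype, in 12 of these pairs, they ran from -0.03 (Ctrl HSC and LMPP GFP-negative, mean between other numbers -0.025) to 0.20 (KO HSC and LMPP GFP-negative, -0.056). The mean between other numbers is no separate baseline, since the deviations of the 3 libraries of a group sum to 0 for each gene. In 0 of the 28 pairs was every one over 0.1, a cut that misses weaker sharing, and the fits reported hold no block. With the replicate block, 2 members passed for LMPP against HSC in KO GFP-negative cells, Procr having joined (4.21, adjusted p = 0.0440), and it changed no other count of members passing. Libraries sharing a description number had a consensus correlation of 0.0374.

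The number of all genes passing also moved by over 1.5 times. In the mean genotype comparison it was 76, and 46 to 182 over the alternatives, and in the mean CD135 comparison 677, and 533 to 1487. For genotype in single populations it was 26 (2 to 174), 70 (0 to 704), 9 (0 to 44) and 7 (0 to 9). For the reporter it was 441 (0 to 1198), 61 (19 to 242), 9 (0 to 141) and 187 (8 to 799), and for LMPP against HSC 60 (29 to 443), 145 (5 to 909), 142 (37 to 1059) and 99 (1 to 377). For the interactions it was 1 (0 to 18), 0 (0 to 6), 0 (0 to 14), 5 (0 to 123) and 2 (1 to 5). In their low groups Tek, Procr, Fgd5 and Grb10 sit near the lowest value that a library resolves. Low values there fall 0.574 to 2.42 normalised counts apart, so the order of the low groups of these genes cannot be read.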
